A study of Saccharomyces cerevisiae with 6 samples.

Results

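The genes of peroxisome assembly and of the fatty acid oxidation that peroxisomes carry out were followed in an engineered xylose-fermenting *Saccharomyces cerevisiae* strain, BSGX001, and in its derivative labelled as deleted for the transcription factor gene *THI2*, BSGX001 (thi2Δ). The members are every gene whose symbol is PEX followed by a number, together with *POX1*, *FOX2*, *POT1*, *ECI1*, *DCI1*, *SPS19*, *FAA2*, *CAT2*, *PXA1*, *PXA2*, *ANT1*, *OAF3* and *PIP2*. This rule reads names and no measured value. It found 41 of the 5925 genes in the files, 28 of them peroxins, and all 41 passed the filter on low counts that left 5774 genes. The haploid CEN.PK 113-5D was the parent of BSGX001, which carries Ru-XI, XK, gre3::PPP and cox4delta, after adaptive evolution in xylose. BSGX001 (thi2Δ) carries all of these and thi2delta. Each strain was measured in 3 poly(A) RNA libraries sampled at 20 h, in the GX stage, when glucose had run out and xylose was being consumed. The medium held yeast nitrogen base at 1.7 g/L, ammonium sulfate at 5 g/L, and glucose and xylose at 20 g/L each, and the cultures were kept at 30 °C and 200 rpm. The labels do not say whether the numbered replicates were separate cultures, so the p-values measure only the spread between these libraries, which may be technical, and whether each strain was 1 clone is not given in the sources used here.

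In yeast the peroxisome is the only site of fatty acid β-oxidation. Peroxins import folded enzymes into its matrix, insert its membrane proteins and set its size and number. Activated fatty acids enter through the Pxa1-Pxa2 transporter or are activated inside, and are then shortened by Pox1, Fox2 and Pot1. Glucose represses these genes. Growth on oleate induces them through the transcription factor pair Oaf1-Pip2, which binds the oleate response element, and through Adr1. No fatty acid is named in the labelled medium.

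The oleate response element is a pair of inverted CGG triplets. It was searched as CGGNNNTNA, then 9 to 12 further bases, then CCG, on both strands of the 300 bases before each start codon, in the R64 annotation of strain S288C as RefSeq gives it. Matches were found before 13 of the 41 members (31.7%) and before 62 of all 6001 protein-coding genes (1.03%). The rule names genes of the pathway that this element is known for, so these shares are a description and not a test. The genome of CEN.PK 113-5D was not used here, so these letters are those of S288C. The members with a match were *POX1*, *FOX2*, *POT1*, *ECI1*, *DCI1*, *SPS19*, *FAA2*, *PXA2*, *PIP2* and the peroxins *PEX5*, *PEX6*, *PEX11* and *PEX13*. The match before *FAA2* lies inside another annotated gene, *BUD25*. The matches lay 113 to 275 bases before the start codon, and 4 of them (*POX1*, *POT1*, *DCI1* and *PIP2*) read as a match on both strands. Shown here, because the RNA of these genes is described further on, are 60 bases around the match, 5′ to 3′ on the strand of the gene, with the match in capitals. They lie at chrVII:107864-107923 (plus strand) for *POX1*, chrXI:457286-457345 (minus) for *FOX2*, chrIX:41592-41651 (minus) for *POT1*, chrXII:707173-707232 (minus) for *ECI1* and chrXV:675268-675327 (minus) for *DCI1*. Those of the others are at chrXV:1023329-1023388 (minus) for *PIP2*, chrXIV:259394-259453 (plus) for *SPS19*, chrXI:89017-89076 (minus) for *PXA2* and chrIV:950369-950428 (plus) for *PEX5*.
POX1: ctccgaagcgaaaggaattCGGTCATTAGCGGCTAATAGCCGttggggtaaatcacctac
FOX2: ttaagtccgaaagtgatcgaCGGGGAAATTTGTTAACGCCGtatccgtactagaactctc
POT1: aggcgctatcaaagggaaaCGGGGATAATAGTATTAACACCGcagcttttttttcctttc
ECI1: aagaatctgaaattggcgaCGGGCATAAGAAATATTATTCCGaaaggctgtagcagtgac
DCI1: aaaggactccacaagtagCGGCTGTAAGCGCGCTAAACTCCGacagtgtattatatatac
PIP2: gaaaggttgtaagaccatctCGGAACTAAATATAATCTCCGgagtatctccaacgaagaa
SPS19: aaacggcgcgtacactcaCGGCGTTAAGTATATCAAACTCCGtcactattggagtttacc
PXA2: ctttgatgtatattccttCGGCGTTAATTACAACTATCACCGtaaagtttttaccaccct
PEX5: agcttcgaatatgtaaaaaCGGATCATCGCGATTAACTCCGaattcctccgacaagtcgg

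The libraries held 7584920 to 12255688 counts, and the lowest member count in a library was 18. *THI2* read 215, 203 and 187 counts in BSGX001 and 128, 90 and 141 in BSGX001 (thi2Δ), a log2 fold change of -1.10 with reads remaining in the strain labelled as deleted. Which part of the reading frame remains there is not given in the sources used here. *COX4* and *GRE3*, labelled as deleted or replaced in both strains, read at least 222 and 395 counts in every library. Although the parent is haploid, markers of both mating types were read: 5 a-cell genes summed to 367 to 403 CPM (counts scaled to a common library size with edgeR's TMM factors) in BSGX001 and 416 to 483 CPM in BSGX001 (thi2Δ). The 3 alpha-cell genes summed to 156 to 171 CPM and 127 to 135 CPM, and none of the 8 genes was at 0. *BAR1* of the a-cell genes had a log2 fold change of 0.47 and *STE3* of the alpha-cell genes one of -0.34 (adjusted p = 7.92e-06 and 2.04e-04, edgeR), the call of *STE3* being lost with library totals (-0.12, adjusted p = 0.131). At an adjusted p under 0.05 (edgeR), 3 of the 5 a-cell genes were higher and none lower. Of the 3 alpha-cell genes 1 was lower and none higher, beside 26.1% higher and 25.2% lower of all genes tested. *MF(ALPHA)2* was at 0.24 and *MF(ALPHA)1* at -0.32, neither passing (adjusted p = 0.291 and 0.0735, edgeR). *STE3* made up most of the alpha-cell sum, at means of 144 and 114 CPM. The part of these markers in the results was not tested. Chromosome I and a chromosome XII segment that *ECM22* and *GAS2* bound (600019 to 817761 in R64) were read about 2-fold higher in BSGX001 (thi2Δ). The median log2 fold changes were 0.99 over 85 genes of chromosome I and 1.06 over 107 genes of the segment. Members in these regions are therefore described apart.

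Between the strains, 14 members were higher and 7 lower in BSGX001 (thi2Δ), and 20 did not pass an adjusted p of 0.05 (edgeR's quasi-likelihood test with Benjamini-Hochberg adjustment over all 5774 genes). Of all genes tested, 51.3% passed, 26.1% higher and 25.2% lower, so that 21 of 41 members is a share near the background. The median log2 fold change of the members was 0.06, and that of all genes tested was 0.01. Outside the doubled regions, 11 of 38 members were higher and 7 lower, with a median of 0.02, beside 23.7% higher and 26.1% lower of all 5582 genes tested there, these members included. With scaling to library totals alone, the median of all genes moved to 0.22 and the members split into 24 higher and 4 lower, beside 51.9% and 10.3% of all genes. All changes given below are on the TMM scale, that is, relative to most other genes. Counts by role below stand beside 26.1% higher and 25.2% lower of all genes tested, and are descriptions only. Relative to *ACT1* alone, which itself had a log2 fold change of 0.39, the called rises of *POT1*, *PEX34*, *PEX29* and *PIP2* would lie below 0. Those of *PEX31*, *PXA1*, *POX1* and *CAT2* would lie between 0.018 and 0.044. The CPM of 28 members did not overlap between the strains, beside 57.8% of all genes. A change of at least 2-fold that passed was seen in 3 members, all in the doubled regions, and in 2.39% of all genes.

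**Figure D1:**
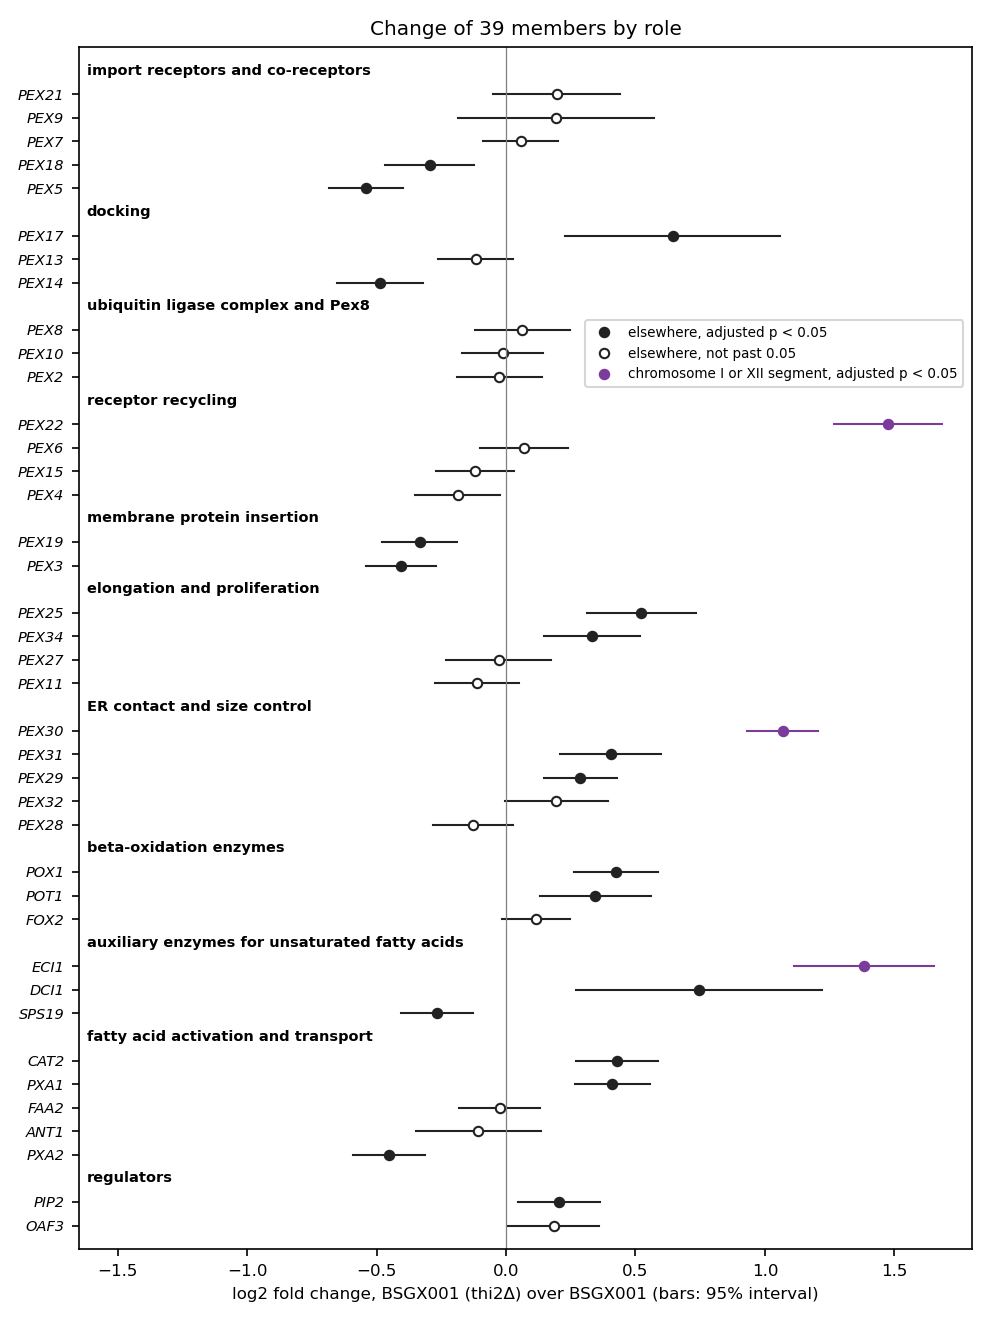
Log2 fold change of 39 members, BSGX001 (thi2Δ) over BSGX001, grouped by role, with 95% intervals from edgeR (3 libraries per strain). Filled points passed an adjusted p of 0.05, and the 3 violet points (*PEX22*, *PEX30* and *ECI1*) lie in the doubled regions and reach from 1.07 to 1.47.

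Of the 5 import receptor and co-receptor genes, 2 were lower and none was higher, beside 25.2% and 26.1% of all genes tested. With library totals, however, *PEX7* and *PEX21* were called higher and only *PEX5* lower, where 51.9% of all genes were higher and 10.3% lower. *PEX5*, the receptor for proteins with a carboxy-terminal peroxisomal signal, read 232, 253 and 239 CPM in BSGX001 and 179, 160 and 158 CPM in BSGX001 (thi2Δ). Every BSGX001 library lay above every thi2Δ library, and the log2 fold change of -0.54 (SE 0.070, adjusted p = 1.37e-07, edgeR) was the largest fall among the members. *PEX7*, the receptor for the amino-terminal signal that Pot1 carries, read 104, 104 and 100 CPM and then 107, 109 and 106 CPM, a log2 fold change of 0.06 with a 95% interval from -0.09 to 0.20. The strains did not overlap for *PEX7* but the difference did not pass the test (adjusted p = 0.526, edgeR). *PEX18*, a co-receptor of Pex7, read 52.7, 58.9 and 59.5 CPM and then 47.4, 44.9 and 46.7 CPM (log2 fold change -0.30, SE 0.083, adjusted p = 0.00391, edgeR). It was thus lower in all 3 thi2Δ libraries, but the call was lost with library totals (-0.08, adjusted p = 0.412). Its paralog *PEX21* and the conditional receptor *PEX9* had overlapping libraries and log2 fold changes of 0.20 and 0.19 (adjusted p = 0.175 and 0.400, edgeR).

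The docking complex, which receives loaded receptors at the membrane, held members that moved in opposite directions. *PEX14*, its core, read 73.3, 71.3 and 81.1 CPM in BSGX001 and 52.5, 57.1 and 51.4 CPM in BSGX001 (thi2Δ). *PEX17*, its peripheral partner, had few reads, at 4.43, 5.44 and 4.19 CPM and then 6.67, 7.50 and 7.99 CPM. In both genes the strains did not overlap, with log2 fold changes of -0.49 (SE 0.081, adjusted p = 9.04e-06, edgeR) and 0.64 (SE 0.20, adjusted p = 0.00918). *PEX13*, which lies on chromosome XII outside the doubled segment, had a log2 fold change of -0.12 (adjusted p = 0.169, edgeR). 

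Neither *PEX2* and *PEX10*, of the ubiquitin ligase that marks receptors for recycling, nor *PEX8*, which links it to the docking complex, passed the test. Their log2 fold changes ran from -0.03 to 0.06 and 0 of 3 had an unadjusted p under 0.05 in edgeR or in DESeq2. limma on log2(FPKM + 1), which is not scaled by TMM, called *PEX8* and *PEX10* higher, beside 3498 of all 5774 genes called in either direction. With library totals edgeR called all 3 higher, where 51.9% of all genes were higher. Among the genes of receptor recycling, *PEX6*, an ATPase that pulls ubiquitinated receptors out of the membrane, and *PEX15*, its anchor, had log2 fold changes of 0.07 and -0.12 and did not pass (adjusted p = 0.502 and 0.182, edgeR), although *PEX6* passed with library totals (0.28, adjusted p = 0.00493). *PEX4*, the ubiquitin-conjugating enzyme, was near the threshold with -0.19 (adjusted p = 0.0521, edgeR). *PEX4* passed in edgeR with DESeq2 size factors (adjusted p = 0.0447), did not pass DESeq2's own test (adjusted p = 0.0776) and was at 0.03 with library totals. Its membrane anchor *PEX22*, on chromosome I, is described with the doubled regions.

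Both genes for the insertion of membrane proteins fell, where 25.2% of all genes tested were lower. *PEX3*, the membrane anchor of the pathway, read 379, 360 and 393 CPM in BSGX001 and 284, 294 and 277 CPM in BSGX001 (thi2Δ). *PEX19*, the soluble receptor that Pex3 docks, read 194, 184 and 196 CPM and then 155, 162 and 139 CPM. All 3 thi2Δ libraries were below all 3 of BSGX001 for both genes, with log2 fold changes of -0.41 (SE 0.067, adjusted p = 7.31e-06, edgeR) and -0.33 (SE 0.071, adjusted p = 2.54e-04). The call of *PEX19* was lost with library totals (-0.12, adjusted p = 0.146), while that of *PEX3* held under all 15 alternatives that carry a test.

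Of the genes that elongate and multiply peroxisomes, *PEX25* and *PEX34* were higher. *PEX25* read 24.5, 21.4 and 22.5 CPM in BSGX001 and 31.6, 33.5 and 33.5 CPM in BSGX001 (thi2Δ), with no overlap and a log2 fold change of 0.52 (SE 0.10, adjusted p = 9.79e-05, edgeR). *PEX34* rose by 0.33 on the log2 scale (adjusted p = 0.00299, edgeR). *PEX11*, the most abundant of the 4 by FPKM in BSGX001, and *PEX27* did not pass, at -0.11 and -0.03. The gene listed in the files as *YGR168C*, which R64 names PEX35 and the naming rule therefore does not take in, was higher by 0.56 (adjusted p = 2.57e-05, edgeR). In the reticulon-like group that sits at contacts with the endoplasmic reticulum and sets peroxisome size, *PEX29* and *PEX31* rose by 0.29 and 0.40 (adjusted p = 9.12e-04 and 7.71e-04, edgeR), and *PEX30* rose within the chromosome XII segment. *PEX28* and *PEX32* did not pass, at -0.13 and 0.19, although *PEX32* passed with library totals (0.41, adjusted p = 0.00105) and without BSGX001 replicate 1 (0.27, adjusted p = 0.0448).

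**Figure D2:**
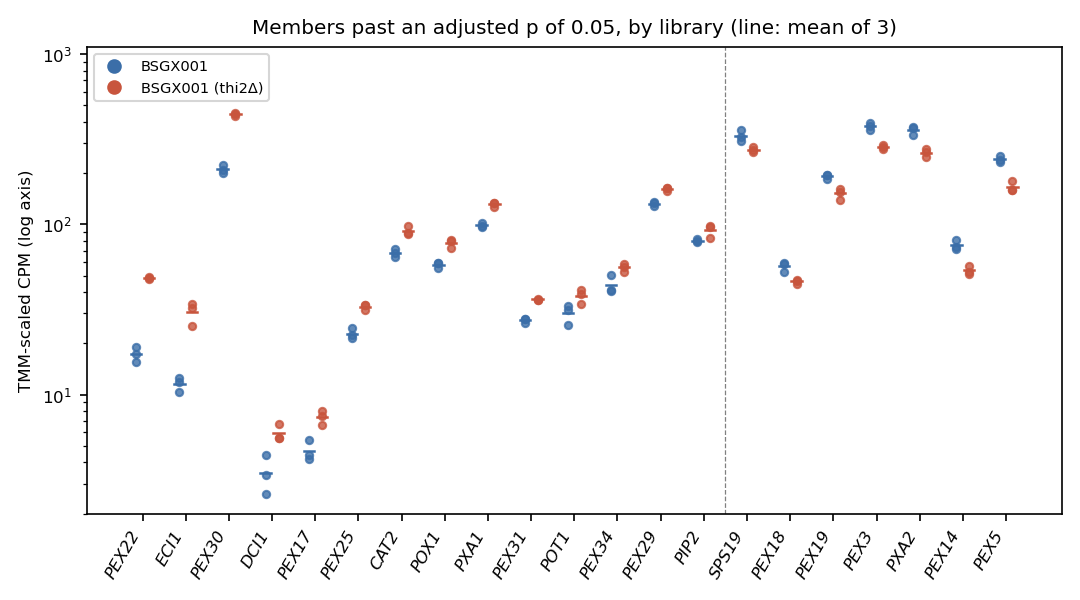
TMM-scaled CPM on a log axis in each of the 6 libraries, for the 21 members past an adjusted p of 0.05, with a line at the mean of 3 libraries. The 14 genes left of the dashed line were higher in BSGX001 (thi2Δ) and the 7 genes right of it lower, and no gene shows overlap between the strains.

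Of the 3 core β-oxidation enzymes, 2 were higher in BSGX001 (thi2Δ), each by under 1.5-fold, where 26.1% of all genes tested were higher. *POX1*, the acyl-CoA oxidase that opens the cycle, read 55.6, 59.4 and 59.1 CPM in BSGX001 and 81.2, 72.5 and 79.3 CPM in BSGX001 (thi2Δ). *FOX2*, the multifunctional enzyme of the middle steps and the most abundant of these enzymes per length, read 354, 349 and 337 CPM and then 377, 371 and 378 CPM. *POT1*, the thiolase that closes the cycle, read 25.5, 31.4 and 33.2 CPM and then 34.0, 41.4 and 39.1 CPM. No gene of these showed overlap between the strains, but the thi2Δ library with the lowest *POT1* was only just above the highest BSGX001 library. The log2 fold changes were 0.43 for *POX1* (SE 0.079, adjusted p = 4.25e-05, edgeR) and 0.35 for *POT1* (SE 0.11, adjusted p = 0.00735). That of *FOX2* was 0.12 and did not pass (95% interval -0.02 to 0.25, adjusted p = 0.139, edgeR). The call of *POT1* was lost without BSGX001 replicate 1 (0.23, adjusted p = 0.0842), and *FOX2* passed with library totals (0.33, adjusted p = 5.27e-05).

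The auxiliary enzymes that let unsaturated fatty acids enter the cycle differed among themselves. *SPS19*, the dienoyl-CoA reductase, had the highest FPKM of all members in BSGX001 (349) and fell by 0.27 on the log2 scale (adjusted p = 0.00161, edgeR), a call lost with library totals (-0.05, adjusted p = 0.512). *DCI1*, a dienoyl-CoA isomerase, had the lowest FPKM (3.96) and read 4.43, 3.39 and 2.60 CPM in BSGX001 and 5.60, 5.57 and 6.71 CPM in BSGX001 (thi2Δ). The strains did not overlap, with a log2 fold change of 0.75 (SE 0.23, adjusted p = 0.00841, edgeR), but without BSGX001 replicate 3 the value was 0.60 and the call was lost (adjusted p = 0.0558). *ECI1*, the enoyl-CoA isomerase, lies in the chromosome XII segment.

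The peroxisomal transporter for activated fatty acids is a dimer of Pxa1 and Pxa2, and the RNA of its subunits moved in opposite directions. *PXA1* read 96.8, 98.1 and 102 CPM in BSGX001 and 134, 134 and 127 CPM in BSGX001 (thi2Δ). *PXA2* read 372, 370 and 335 CPM and then 265, 276 and 247 CPM. Neither gene showed overlap between the strains, and the log2 fold changes were 0.41 (SE 0.071, adjusted p = 1.62e-05, edgeR) and -0.45 (SE 0.069, adjusted p = 2.32e-06). Both calls held under all 15 alternatives with a test. After subtraction of the *ACT1* value, however, *PXA1* would be at only 0.02 and *PXA2* at -0.84. *CAT2*, the carnitine acetyltransferase of peroxisomes and mitochondria, read 67.5, 64.7 and 72.0 CPM and then 97.7, 89.4 and 87.2 CPM, without overlap (log2 fold change 0.43, SE 0.078, adjusted p = 2.92e-05, edgeR). *FAA2*, the acyl-CoA synthetase of medium-chain fatty acids, and *ANT1*, the adenine nucleotide carrier, did not pass, at -0.02 and -0.11. *FAA2* was called higher with library totals (0.19, adjusted p = 0.0325, edgeR), where 51.9% of all genes were higher. It was also called higher with limma on log2(FPKM + 1) (0.18, adjusted p = 0.0493). *FAA2* overlaps *BUD25* by 160 bases in R64, and without a stated strand for the libraries the reads of the overlap cannot be assigned.

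*PIP2*, the partner of Oaf1 at the oleate response element, read 79.9, 78.9 and 81.8 CPM in BSGX001 and 97.3, 82.8 and 96.3 CPM in BSGX001 (thi2Δ). Replicate 2 of BSGX001 (thi2Δ) was close to the BSGX001 libraries. The log2 fold change of 0.20 (SE 0.078) passed with an adjusted p of 0.0283 (edgeR), but not with DESeq2 (0.0541) and not without any of 4 libraries, replicates 1 and 2 of BSGX001 and replicates 1 and 3 of BSGX001 (thi2Δ), where the adjusted p was 0.0543 to 0.120. *OAF3*, a repressor of oleate-responsive genes, read 52.0, 53.0 and 44.4 CPM and then 59.9, 56.5 and 53.6 CPM. Its libraries lay side by side without overlap and the log2 fold change of 0.18 did not pass (adjusted p = 0.0729, edgeR), while it did with library totals (0.40, adjusted p = 3.58e-04).

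The 3 members in the doubled regions were all higher, as were 96.9% of the 192 genes tested there. *PEX22*, the anchor of Pex4, at position 42177 to 42719 of chromosome I, read 19.1, 15.6 and 17.3 CPM in BSGX001 and 48.4, 49.2 and 47.4 CPM in BSGX001 (thi2Δ). *ECI1*, at 706198 to 707040 of chromosome XII, read 11.9, 12.5 and 10.4 CPM and then 25.2, 32.4 and 34.1 CPM. *PEX30*, at 779215 to 780786 of chromosome XII, read 208, 201 and 223 CPM and then 443, 434 and 449 CPM. All 3 genes were clearly apart, with 2.78-fold, 2.61-fold and 2.10-fold higher levels and log2 fold changes of 1.47 (SE 0.10, adjusted p = 3.08e-13, edgeR), 1.38 (SE 0.13, adjusted p = 3.54e-10) and 1.07 (SE 0.067, adjusted p = 4.23e-14). *PEX22* ranked 4 of the 85 genes of chromosome I by log2 fold change, and *ECI1* and *PEX30* ranked 15 and 50 of the 107 genes of the segment. At these genes, the region and the deletion of *THI2* cannot be told apart in these libraries, since all 3 thi2Δ libraries show both.

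Because a ratio of 2 genes within a library does not depend on the scaling between libraries, 12 pairs of functional partners, chosen after their values had been seen, were compared as ratios of FPKM, the deposited value scaled to gene length and library total. The exact two-sided permutation test over 3 against 3 libraries cannot give a p under 0.1, and after adjustment over the 12 pairs not under 0.150. The ratios of 8 pairs did not overlap between the strains, where single genes did not overlap in 57.8% of all cases, and *PEX22* and *OAF1* in 2 of these pairs lie on chromosome I. The share over all gene pairs was not computed, and the count is a description of the chosen pairs. *PXA1* stood at 0.255, 0.260 and 0.299 of the *PXA2* level in BSGX001 and at 0.496, 0.474 and 0.504 in BSGX001 (thi2Δ), 1.82-fold higher by geometric means. The ratio of *PEX17* to *PEX14* went from 0.107 ± 0.021 to 0.236 ± 0.026 and that of *PEX22* to *PEX4* from 0.258 ± 0.024 to 0.825 ± 0.073 (mean ± SD, n = 3). *PEX5* was above *PEX7* in BSGX001, at 1.44 ± 0.059, and near or below it in BSGX001 (thi2Δ), at 0.950 ± 0.067. By contrast the ratio of *PEX3* to *PEX19* overlapped between the strains (1.53 ± 0.022 and 1.46 ± 0.071, exact p = 0.300), as did that of *PEX10* to *PEX2*.

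**Figure D3:**
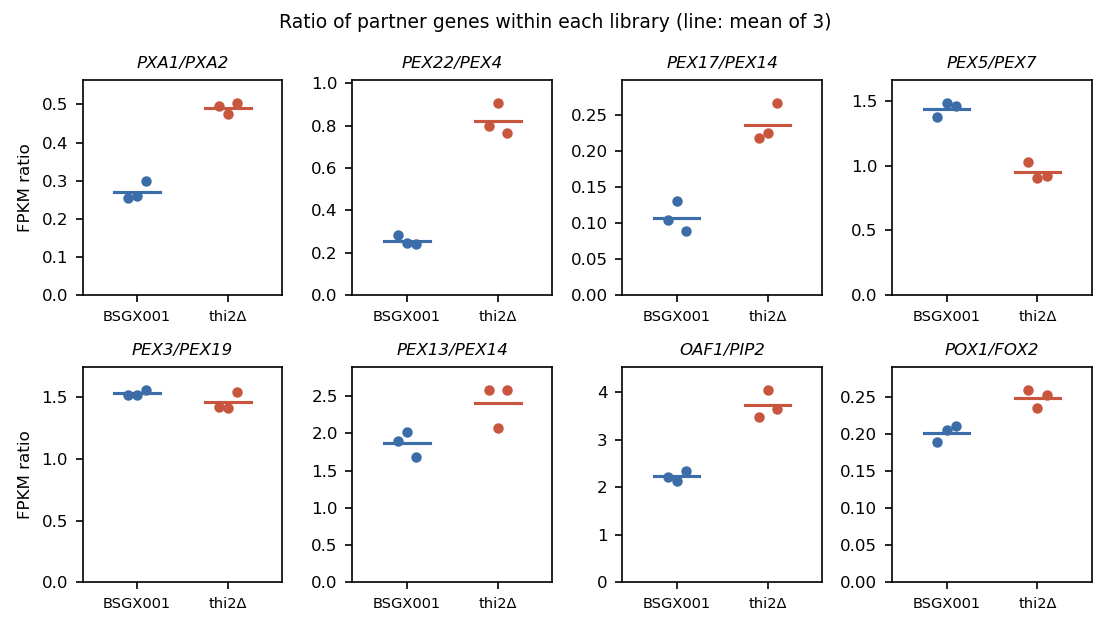
FPKM ratio of 8 of the 12 partner pairs in each library (points) with the mean of 3 libraries (lines), BSGX001 on the left and BSGX001 (thi2Δ) on the right of each panel, axes from 0. *PXA1*/*PXA2*, *PEX22*/*PEX4* and *PEX17*/*PEX14* were higher and *PEX5*/*PEX7* lower in BSGX001 (thi2Δ), and *PEX3*/*PEX19* overlapped.

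The members with an oleate response element match did not share a direction. Of these 13, 5 were higher (*POX1*, *POT1*, *DCI1*, *PIP2* and, in the doubled segment, *ECI1*), 3 were lower (*SPS19*, *PXA2* and *PEX5*) and 5 did not pass, with a median log2 fold change of 0.07. Of the 28 members without a match, 9 were higher and 4 lower, with a median of 0.06. Beside these counts, 26.1% of all genes tested were higher and 25.2% lower, and the counts are descriptions only. Of the transporter genes that moved in opposite directions, *PXA2* has the match printed above and *PXA1* has none in these 300 bases. A match is a description of the letters and says nothing of binding in these cells.

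**Figure D4:**
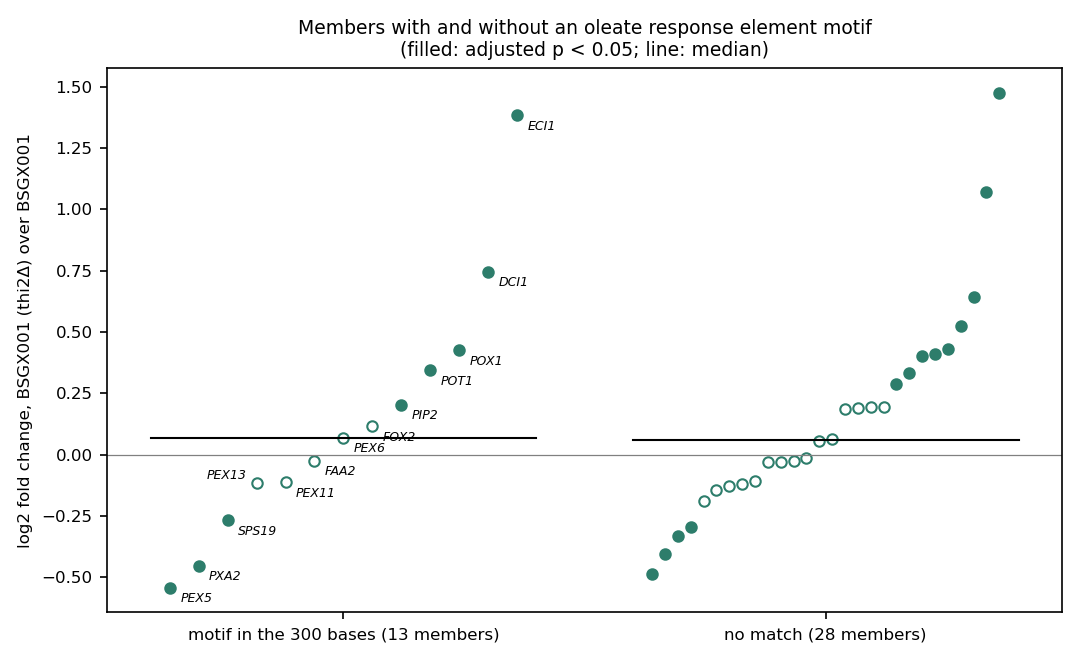
Log2 fold change, BSGX001 (thi2Δ) over BSGX001, of the 13 members with and the 28 members without an oleate response element match in the 300 bases before the start codon. Filled points passed an adjusted p of 0.05 and lines are medians, at 0.07 and 0.06.

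Summed over the 38 members outside the doubled regions, RNA was 3724 to 3773 CPM in BSGX001 and 3465 to 3557 CPM in BSGX001 (thi2Δ) on the TMM scale. The deposited FPKM values, which are scaled to library totals, summed to 2577 to 2654 and 2801 to 2860. The direction of the summed level thus depended on the scaling. In FPKM the members ranged from 3.96 to 349 in BSGX001, with a median of 35.1 beside 50.7 for all genes tested.

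**Figure D5:**
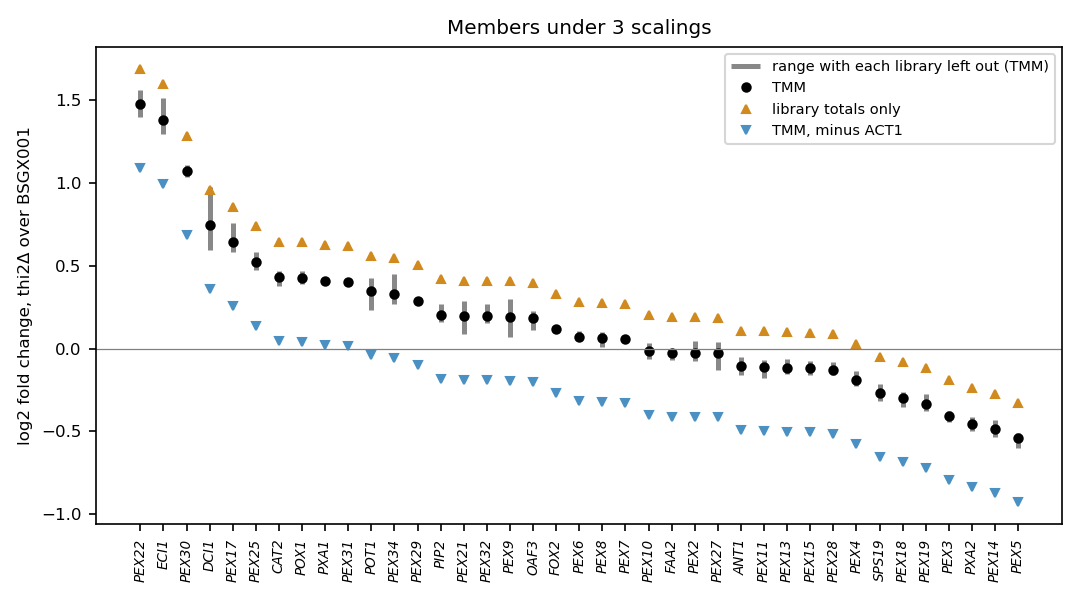
Log2 fold change, thi2Δ over BSGX001, of 39 members with TMM (circles, with the range over leaving out each library as a bar), with library totals (upward triangles) and after subtraction of the *ACT1* value (downward triangles). All 7 members called lower, from *SPS19* to *PEX5*, lie below 0 under all 3 scalings, and of the 14 called higher, *POT1*, *PEX34*, *PEX29* and *PIP2* fall below 0 after subtraction of *ACT1*.

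Other genes of the pathway were read from lists chosen for their textbook roles. The counts of each list stand beside 26.1% higher and 25.2% lower of all genes tested, or 51.9% and 10.3% with library totals, and as short lists they are descriptions only. Of 6 further regulators, 3 were higher and 1 lower. *OAF1*, the oleate receptor that pairs with Pip2, read 186, 177 and 201 CPM in BSGX001 and 357, 351 and 369 CPM in BSGX001 (thi2Δ), a log2 fold change of 0.93 (adjusted p = 1.16e-12, edgeR). It lies on chromosome I, where it ranked 49 of 85. The *OAF1* to *PIP2* ratio of FPKM was 2.23 ± 0.11 in BSGX001 and 3.72 ± 0.29 in BSGX001 (thi2Δ) (mean ± SD, n = 3). *ADR1*, the activator of peroxisomal and ethanol utilization genes that glucose represses, read 839, 803 and 929 CPM and then 714, 653 and 649 CPM, without overlap (-0.35, adjusted p = 1.92e-04, edgeR), a call lost with library totals (-0.13, adjusted p = 0.085). Of 5 Adr1 targets outside the peroxisome, 3 were higher and none lower. The largest rise of them was *ADH2*, the alcohol dehydrogenase that oxidizes ethanol, at 0.73 (adjusted p = 4.96e-05, edgeR), and another, *ACS1*, is on chromosome I.

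Of 15 other proteins of the peroxisomal matrix, 3 were higher and 6 lower. *CTA1*, the peroxisomal catalase that removes the hydrogen peroxide made by Pox1, was higher by 0.24 (adjusted p = 0.0111, edgeR) and *PCD1*, a coenzyme A diphosphatase, by 0.37 (adjusted p = 4.47e-04). The call of *CTA1* was lost without BSGX001 replicate 1 (0.19, adjusted p = 0.0657). The largest fall was that of *LYS1*, of lysine synthesis, at -0.82 (adjusted p = 6.42e-11, edgeR). Among 4 genes of fatty acid uptake and activation, only *FAA1*, the main long-chain acyl-CoA synthetase, passed. It read 846, 809 and 824 CPM in BSGX001 and 482, 515 and 489 CPM in BSGX001 (thi2Δ), lower in all 3 libraries (-0.74, adjusted p = 1.68e-10, edgeR). Of 4 genes of the carnitine shuttle 2 were higher, with the largest rise for *YAT1* on chromosome I (1.09, adjusted p = 5.62e-12, edgeR). In the list of fission, inheritance and pexophagy genes, 5 of 10 were higher and 1 lower. *MDV1*, the adaptor that brings the Dnm1 GTPase to Fis1, rose by 0.73 (adjusted p = 2.46e-08, edgeR), while *VPS1*, the other dynamin-like GTPase of peroxisome fission, was lower (-0.41, adjusted p = 1.19e-05).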

How the data were processed

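RNA of 3 BSGX001 and 3 BSGX001 (thi2Δ) libraries was sequenced on an Illumina instrument. The authors deposited an expected count per gene, which held whole numbers without normalization, and FPKM, scaled to gene length and library total. Their processing notes name R64 and DESeq. The aligner, the counter and the strand setting are not given in the sources used here. The deposited comparison columns (fold changes and p-values) and 12 further columns of the series tables, equal to the per-library values within 0.001, were not used.

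Counts were compared with edgeR 4.0.16 in R 4.3.3 (TMM, filterByExpr, robust quasi-likelihood fit, Benjamini-Hochberg adjustment over 5774 genes, threshold 0.05). Standard errors were obtained as the size of the log2 fold change over the root of the F statistic. The biological coefficient of variation was 0.0628, and TMM factors were 0.912 to 0.942 in BSGX001 and 1.06 to 1.09 in BSGX001 (thi2Δ). Every pair of libraries differed by more than sampling noise. Depth was 7584920 to 12255688 counts per library, so the precision of members with few counts, such as *DCI1* and *PEX17*, was limited by sampling. Gene IDs of 5923 of 5925 genes matched R64.

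Members and lists were chosen with earlier results of these data known, and the ends of the chromosome XII segment were taken from that earlier work. Counts over members include all 41, of which 2 are not reported here by name. Values per library are given for the 6 largest rises and 6 largest falls among called members without overlap outside the doubled regions, for all members inside them, and for *POX1*, *FOX2*, *POT1*, *PEX5*, *PEX7*, *PIP2* and *OAF3*. From each list the largest called rise and fall are named, with *OAF1*, *ADR1* and *CTA1* in any case, and *ACS1* and *YGR168C* were named after their values were seen. Alternatives were other scalings, filters, the replicate block, DESeq2 1.42.0, limma 3.58.1 on log2(FPKM + 1) and log2(FPKM + 0.1), and each library left out. The edgeR fit was also run on simulated counts with equal numbers of rises and falls and without the doubled regions. That run does not test the scaling between the strains.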

Additional observations from a re-analysis of the deposited data

How the results depend on the processing

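The result that moved with the processing was the split of higher and lower members. With library totals 24 members were higher and 4 lower, beside 51.9% and 10.3% of all genes. With limma, on FPKM plus 1 or plus 0.1 in log2, 23 were higher and 4 lower. In either direction limma called 27 of 41 members under both settings, beside 3498 and 3496 of all 5774 genes. Of the 44 pathway-list genes, 29 were higher under each of these 3 settings, and 5 were lower under both limma settings. The members' median was 0.28 with library totals, 0.27 and 0.28 with limma, and -0.32 after subtraction of *ACT1*, which itself had a log2 fold change of 0.39. The median of all genes tested was 0.22 with library totals and under both limma settings. Under these 3 settings 10 members that had not passed changed sign, in the order library totals, limma with 1, limma with 0.1: *PEX10* (0.20, 0.20, 0.20), *FAA2* (0.19, 0.18, 0.19), *PEX2* (0.19, 0.18, 0.18), *PEX27* (0.19, 0.19, 0.19), *ANT1* (0.11, 0.11, 0.12), *PEX11* (0.11, 0.11, 0.11), *PEX13* (0.098, 0.095, 0.096), *PEX15* (0.096, 0.092, 0.093), *PEX28* (0.0886, 0.0899, 0.0917) and *PEX4* (0.028, 0.023, 0.023). *PEX10* was also at 0.0016 with TMM factors computed without the doubled regions. Among the called genes named here, subtraction of *ACT1* changed the sign of *POT1* (-0.041), *PEX34* (-0.054), *PEX29* (-0.099), *PIP2* (-0.18), *CTA1* (-0.15), *PCD1* (-0.013) and *COX4* (-0.030). Members that had not passed are left out of this list, and those with a rise under 0.39 would also lie below 0. With each library left out, *PEX10* ranged from -0.0635 to 0.0365, *PEX2* from -0.0759 to 0.0454 and *PEX27* from -0.13 to 0.0403. The cause was not tested.

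Libraries with the same replicate number did not deviate together (correlations of 0.083, -0.068 and -0.054), so that the numbers give no pairing. With the replicate block 14 members were higher and 8 lower, the added call being *PEX4* (-0.19, adjusted p = 0.0428, edgeR), and no other member's call changed. Members with few counts were limited by depth.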
